A study of Homo sapiens with 3 samples.

Results

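This report describes 8 long non-coding RNAs, MALAT1, NEAT1, MIAT, GAS5, SNHG1, SNHG5, SNHG6 and SNHG8, in myeloma cells and bone marrow stromal cells grown apart and together. They were taken by symbol, 8 of the 43913 genes in the count tables, and all of them were found. The data were single-cell UMI counts (a UMI marks 1 captured RNA molecule) from 3 Drop-seq libraries, 1 per condition. MM.1S, an established human multiple myeloma line labelled as B lymphoblasts, and HS-5, an established human bone marrow stromal line, were each grown in monoculture, and a coculture of both lines was kept for 4 hours by its labels, although a figure legend gives 2 hours. No culture was treated. Each line stands for its cell type alone, and 1 culture was sequenced per condition, so no difference below has a replicate check. All intervals are 95% intervals for counting error only.

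The coculture cells were assigned to a line by 63 genes at least 50 times higher in MM.1S and 164 at least 50 times higher in HS-5 monoculture, and none of the 8 RNAs was among them. This gave 1647 MM.1S and 2103 HS-5 cells from the coculture, beside 3947 MM.1S and 3732 HS-5 cells from the monocultures, and 106 coculture cells with RNA of both lines (2.75%) were left out. Median depth was 2201 UMIs per cell in MM.1S monoculture, 669 in MM.1S coculture cells, 971.5 in HS-5 monoculture and 957 in HS-5 coculture cells. Plasma cell RNAs marked the MM.1S populations (JCHAIN 6664 and 4138 CPM, counts per 1000000 UMIs, against 0.977 and 27.9 in HS-5). However, CD27 was at or near 0, and SDC1 was higher in HS-5 than in MM.1S in monoculture (135 against 38.1 CPM). In coculture SDC1 was alike in HS-5 and MM.1S cells (126 and 125 CPM). HS-5 cells held COL1A1, SPARC and IL6, but COL3A1 and TAGLN were at or below 4.88 CPM and FN1 was higher in MM.1S (810 CPM) than in HS-5 (252 CPM). JCHAIN, COL1A1, SPARC and IL6 meet the rule for the genes that assigned the coculture cells. Their levels in coculture cells thus follow from the assignment and are no check of it. RNA of the other line was estimated at 1.96% of UMIs in MM.1S and 0.973% in HS-5 cells of the coculture, and 8 barcodes of the cells kept occurred in more than 1 library.

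MALAT1, NEAT1 and MIAT act as RNAs in the nucleus. MALAT1 gathers in nuclear speckles, where splicing factors are stored, NEAT1 is the scaffold of paraspeckles, bodies that hold RNA-binding proteins, and MIAT is a nuclear transcript first linked to myocardial infarction. GAS5 and the SNHG genes carry small nucleolar RNAs (snoRNAs), which guide the modification of ribosomal RNA, inside their introns. The spliced host transcripts have little coding potential, are cleared by nonsense-mediated decay while ribosomes translate them, and several begin with the pyrimidine tract that places the mRNAs of ribosomal proteins under the control of growth signals (the 5′ TOP tract).

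In GENCODE release 29 (GRCh38) MALAT1 (ENSG00000251562.8) lies at chr11:65497688-65506516 and NEAT1 (ENSG00000245532.8) at chr11:65422774-65445540, both on the plus strand. Both are lincRNA genes whose longest transcript has 1 exon. MIAT (ENSG00000225783.7), a lincRNA with 5 exons, lies at chr22:26646428-26676475 on the plus strand. Among the host genes GAS5 (ENSG00000234741.7) lies at chr1:173863900-173868882, SNHG1 (ENSG00000255717.6) at chr11:62851988-62855914 and SNHG5 (ENSG00000203875.11) at chr6:85660950-85678748, all on the minus strand. SNHG6 (ENSG00000245910.8) is also on the minus strand, and SNHG8 (ENSG00000269893.6) is at chr4:118278709-118279823 on the plus strand. Whether reads were counted by strand was not stated. GAS5 overlaps GAS5-AS1 (at most 0.808 CPM) and ZBTB37 (6.61 to 9.69 CPM) on the opposite strand, MIAT overlaps MIATNB (1.21 to 5.05 CPM), and SNHG6 overlaps MCMDC2 (at most 2.42 CPM), so reads of these pairs may not be told apart.

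Drop-seq beads capture RNA by its poly(A) tail. The mature 3′ end of MALAT1 is cut from a longer precursor and has no such tail, so the A-rich stretches of the nuclear RNAs, which oligo-dT can also bind, are all shown here. Stretches were windows of 20 bases with at least 15 A, read from the GENCODE transcripts on the RNA strand alone, with A in capitals. MALAT1 had 1 such stretch, NEAT1 4 and MIAT 2, and GAS5 and the SNHG RNAs had none.
MALAT1, bases 8336 to 8355 of 8708, chr11:65506097-65506116: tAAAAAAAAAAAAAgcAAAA
NEAT1, bases 10213 to 10232 of 22743, chr11:65433010-65433029: AAAAAAAAAAAAAAccAcAA
NEAT1, bases 16872 to 16891 of 22743, chr11:65439669-65439688: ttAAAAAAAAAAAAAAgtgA
NEAT1, bases 17683 to 17702 of 22743, chr11:65440480-65440499: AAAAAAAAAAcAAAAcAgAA
NEAT1, bases 18046 to 18065 of 22743, chr11:65440843-65440862: AAAAAAAAAAAAAAAAAAAA
MIAT, bases 4271 to 4290 of 10143, chr22:26670603-26670622: AAAAAAAAAAAAAAAAAAAA
MIAT, bases 5491 to 5510 of 10143, chr22:26671823-26671842: AgAcAcctAAAAAAAAAAAA
The MALAT1 stretch is near the 3′ end of the transcript, and the NEAT1 stretches lie inside its long form. Where reads fell along these RNAs was not analysed here.

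The start sites of GAS5, SNHG1, SNHG5 and SNHG8 are shown, since host RNAs are known for the 5′ TOP tract. Each window holds 30 bases before and 30 from the RefSeq start (GRCh38.p14), on the strand of the gene. Capitals mark a run of at least 5 C or T that begins with C, its first base within 5 bases of the start, searched on the RNA strand alone.
GAS5, chr1:173869016-173869075, minus strand: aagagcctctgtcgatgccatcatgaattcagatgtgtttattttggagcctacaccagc
SNHG5, chr6:85678704-85678763, minus strand: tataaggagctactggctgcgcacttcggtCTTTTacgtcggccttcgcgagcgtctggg
SNHG8, chr4:118278732-118278791, plus strand: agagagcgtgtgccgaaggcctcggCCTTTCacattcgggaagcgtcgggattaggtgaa
SNHG1, chr11:62855856-62855915, minus strand: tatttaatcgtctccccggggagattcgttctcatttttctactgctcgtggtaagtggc
SNHG5 and SNHG8 held such a run, and SNHG1 and GAS5 did not by these letters in this window. The SNHG5 run began at the RefSeq start, while that of SNHG8 began 5 bases before it and lay mostly upstream. Any link between the run and the ratios between cultures was not tested. Of 7 RefSeq start sites of the RNAs searched, 3 held it, the third at a start of MALAT1. The run occurred at 21.1% of 35116 RefSeq start sites and at 57 of 79 start sites of cytosolic ribosomal protein genes (72.2%). The RefSeq start of GAS5 lies outside its GENCODE gene, so its window may not hold the start of the RNA counted here.

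The 8 RNAs together made up 3.94% of all UMIs in MM.1S monoculture, 4.73% in MM.1S coculture, 2.39% in HS-5 monoculture and 1.77% in HS-5 coculture cells, most of it MALAT1. In MM.1S cells, NEAT1, MIAT and SNHG1 were at least 2-fold higher in coculture and GAS5, SNHG5 and SNHG6 at least 2-fold lower, over all cells. MIAT was under 2-fold within each range of depth that both cultures filled. So was NEAT1 from 500 to 1000 UMIs (1234 CPM in monoculture, 2197 CPM in coculture). SNHG5 was under 2-fold above 2000 UMIs (455 CPM in monoculture, 285 CPM in coculture). In HS-5 cells none of the 8 differed by 2-fold between the cultures over all cells. Few genes did there: of those averaging 10 CPM or more, 1.21% were at least 2-fold higher and 1.82% lower. From 500 to 1000 UMIs GAS5 was past 2-fold in HS-5 (79.0 CPM in monoculture, 209.6 CPM in coculture). The label of abundant RNAs did not hold for MIAT in HS-5 cells, where it stayed below 10 CPM. The other 7 averaged 10 CPM or more there, a level that 8811 genes reached.

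**Figure D1:**
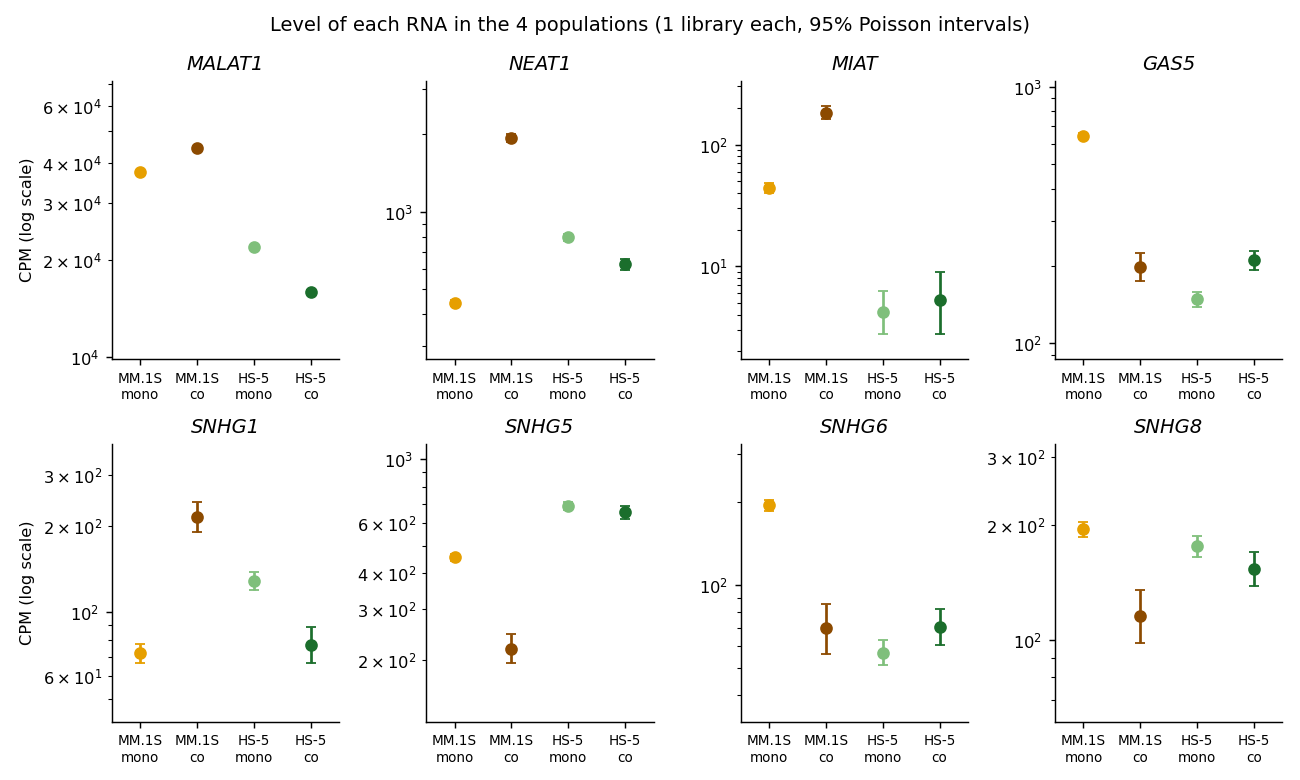
Level of each RNA in CPM (log axis, scale set per panel) in MM.1S monoculture, MM.1S coculture, HS-5 monoculture and HS-5 coculture cells; points are sums over all cells of 1 library and bars are 95% Poisson intervals. MALAT1, NEAT1, MIAT and SNHG1 were highest, and SNHG5 and SNHG8 lowest, in MM.1S coculture cells.

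MALAT1 was found in nearly every cell. Its level was 37372 CPM in MM.1S monoculture (37254 to 37489), 44348 CPM in MM.1S coculture (43991 to 44708), 21911 CPM in HS-5 monoculture (21794 to 22028) and 15940.4 CPM in HS-5 coculture (15784 to 16098). The MM.1S levels were above both HS-5 levels, and no intervals overlapped. MALAT1 was 1.19-fold higher in coculture than in monoculture in MM.1S cells, a log2 ratio of 0.25 where the median over all genes was 0.24. Among cells with 500 to 1500 UMIs this ratio was -0.03, so it had no stable direction. In HS-5 cells MALAT1 was 1.37-fold lower in coculture, with a log2 ratio of -0.46 against a median of -0.04 over all genes.

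Depth differed between populations, so each cell was also thinned to 1000 UMIs, and shallower cells were left out. This kept 3870 of 3947 MM.1S monoculture cells, 379 of 1647 MM.1S coculture cells, 1802 of 3732 HS-5 monoculture cells and 999 of 2103 HS-5 coculture cells. MALAT1 then had at least 1 UMI in 99.9%, 100%, 99.8% and 99.2% of these cells, and before thinning in 100%, 99.9%, 99.5% and 97.6%. The median cell held 33 MALAT1 UMIs per 1000 in MM.1S monoculture and 34 in MM.1S coculture, against 22 in HS-5 monoculture and 14 in HS-5 coculture. Among the cells kept, the middle of the MM.1S distribution was thus nearly the same in both cultures, while that of HS-5 lay lower in coculture. The MM.1S coculture cells left out had more MALAT1 (51344 CPM below 500 UMIs, 47339 CPM from 500 to 1000). Those kept had 38311 CPM from 1000 to 2000 UMIs and 41695 CPM above. The few MM.1S monoculture cells left out also had more (75440 CPM). Cells of MM.1S monoculture lay between 13 and 68 MALAT1 UMIs at the percentiles 10 and 90, and those of HS-5 coculture between 4 and 29. The variance divided by the mean was 21.9 in MM.1S monoculture, 13.7 in MM.1S coculture, 8.11 in HS-5 monoculture and 7.29 in HS-5 coculture cells.

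**Figure D2:**
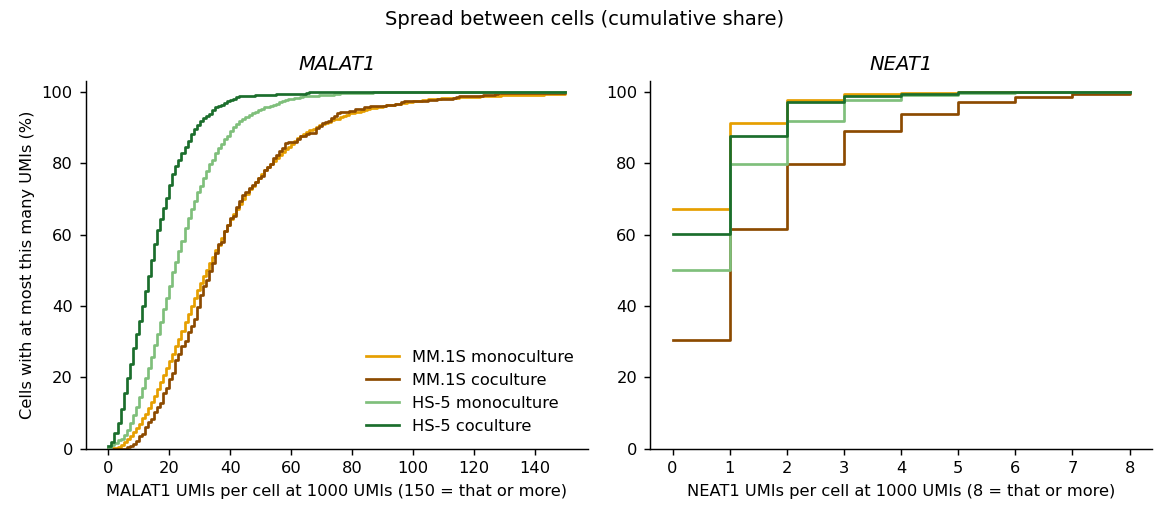
Cumulative share of cells (%) against MALAT1 and NEAT1 UMIs per cell after thinning to 1000 UMIs; each line is 1 population, and the last step holds all higher counts. The 2 MM.1S lines for MALAT1 lie on each other (medians 33 and 34), and for NEAT1 the line of MM.1S coculture cells lies lowest.

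NEAT1 had the highest ratio between the cultures of MM.1S over all cells. It measured 442 CPM in MM.1S monoculture (429 to 455), 1936 CPM in MM.1S coculture (1862 to 2012), 795 CPM in HS-5 monoculture (773 to 817) and 626 CPM in HS-5 coculture (595 to 658). MM.1S coculture cells had the highest level and MM.1S monoculture cells the lowest, with no overlap between intervals. NEAT1 was 4.38-fold higher in coculture in MM.1S cells, a log2 ratio of 2.13 (2.06 to 2.20). In HS-5 cells it was 1.27-fold lower, a log2 ratio of -0.34 (-0.43 to -0.26). After thinning, 32.9% of MM.1S monoculture cells held a NEAT1 UMI (31.4 to 34.4) and 69.7% of MM.1S coculture cells did (64.8 to 74.2). The shares were 49.9% in HS-5 monoculture (47.6 to 52.2) and 39.8% in HS-5 coculture (36.8 to 43.0), the same order as the levels. Without thinning the 4 shares were 55.6%, 69.9%, 58.9% and 42.9%.

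The levels of both RNAs moved with the depth of the cells. In MM.1S monoculture NEAT1 was 1234 CPM in the 77 cells below 1000 UMIs, 493 CPM from 1000 to 2000 UMIs and 418 CPM above 2000 UMIs. In MM.1S coculture it was 2197, 1479 and 1266 CPM in the same ranges, and 2698 CPM in cells below 500 UMIs. NEAT1 was therefore higher in MM.1S coculture within each range of depth that both cultures filled. MALAT1 was 75440.1 CPM in MM.1S monoculture cells below 1000 UMIs, 41018 CPM from 1000 to 2000 and 35903 CPM above 2000, against 47339, 38311 and 41695 CPM in coculture. Its order between the 2 cultures thus differed from range to range. In HS-5 cells from 1000 to 2000 UMIs, MALAT1 was 26149 CPM in monoculture and 15469 CPM in coculture, and NEAT1 was 968 and 601 CPM. The part of depth in these differences was not tested.

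**Figure D3:**
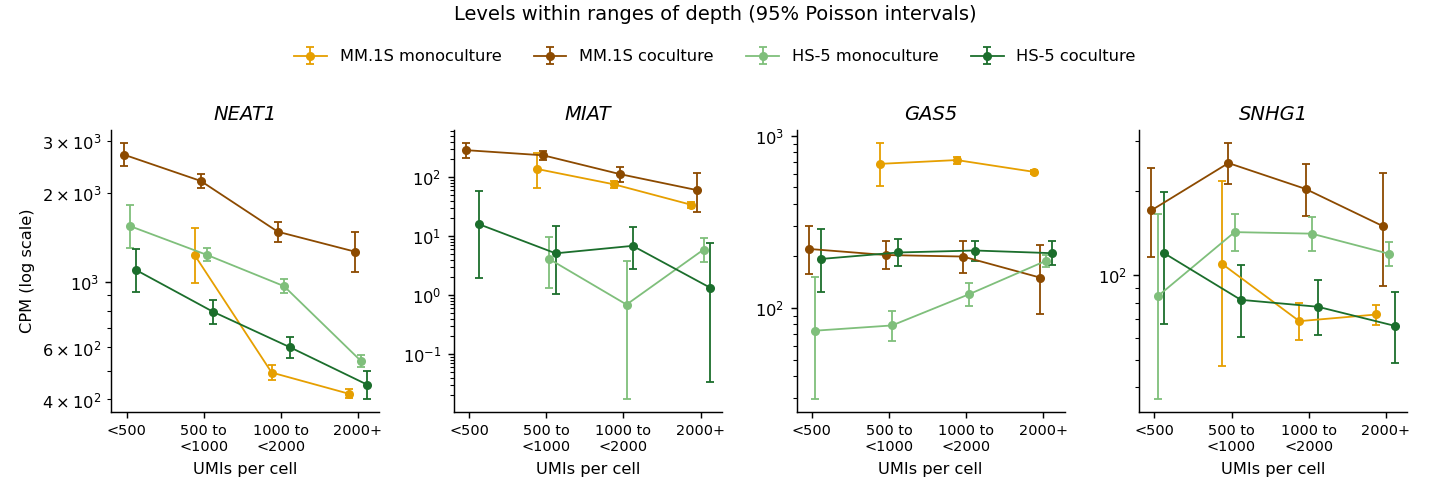
NEAT1, MIAT, GAS5 and SNHG1 in CPM (log axis) within 4 ranges of UMIs per cell, with 95% Poisson intervals; each line is 1 population, and ranges with no UMI of the RNA have no point. NEAT1 and MIAT are lower in deeper MM.1S cells, and in HS-5 monoculture GAS5 is higher in deeper cells (79.0 CPM from 500 to 1000 UMIs, 188 CPM above 2000).

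MIAT was found mainly in the myeloma line. It measured 44.3 CPM in MM.1S monoculture (40.3 to 48.5), 183 CPM in MM.1S coculture (161 to 208), 4.23 CPM in HS-5 monoculture (2.77 to 6.20) and 5.25 CPM in HS-5 coculture (2.80 to 8.98). The HS-5 values rest on 26 UMIs in 14 cells, 13 of them in 1 cell, and on 13 UMIs in 12 cells, and their intervals overlap. In MM.1S cells MIAT was 4.07-fold higher in coculture, a log2 ratio of 2.02 (1.82 to 2.28). Among cells with 500 to 1500 UMIs the log2 ratio was 1.05. From 500 to 1000 UMIs the level was 137 CPM in monoculture (65.8 to 252) and 234 CPM in coculture (196 to 277). From 1000 to 2000 UMIs it was 75.2 CPM (64.7 to 87.0) and 112 CPM (82.7 to 148), and above 2000 UMIs 33.9 CPM (29.996 to 38.2) and 59.9 CPM (25.9 to 118). The coculture level was thus under 2-fold higher in each range that both cultures filled, with overlapping intervals. After thinning, 4.83% of MM.1S monoculture cells (4.18 to 5.56) and 8.71% of coculture cells (6.07 to 12.01) held a MIAT UMI, against 0.277% and 0.601% in HS-5. Unthinned, the shares were 9.55%, 12.9%, 0.375% and 0.571%.

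GAS5, a snoRNA host named for its growth arrest-specific transcript, had its highest level in MM.1S monoculture. It measured 641 CPM there (626 to 657), 198 CPM in MM.1S coculture (175 to 224), 148 CPM in HS-5 monoculture (139 to 158) and 210.4 CPM in HS-5 coculture (193 to 229). The levels of the 2 lines in coculture overlapped within counting error, while those in monoculture were 4.30-fold apart. In MM.1S cells GAS5 was 3.22-fold lower in coculture, a log2 ratio of -1.69 (-1.88 to -1.52). This difference held in cells of 1000 to 2000 UMIs (722 CPM in monoculture, 199 CPM in coculture) and above 2000 UMIs (616 and 150 CPM). In HS-5 cells it was 1.42-fold higher in coculture, a log2 ratio of 0.50 (0.35 to 0.66). There the difference was in the shallower cells: GAS5 was 79.0 CPM in monoculture and 209.6 CPM in coculture from 500 to 1000 UMIs, and 188 and 208 CPM, with overlapping intervals, above 2000 UMIs. Among HS-5 cells of 500 to 1500 UMIs the log2 ratio was 1.18, past 2-fold. After thinning, 44.5%, 18.997%, 13.3% and 17.6% of cells held a GAS5 UMI in MM.1S monoculture, MM.1S coculture, HS-5 monoculture and HS-5 coculture, and 71.0%, 14.6%, 15.997% and 19.3% before it.

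SNHG1, a host of several C/D box snoRNAs, went the other way from GAS5 in both lines. Its level was 71.9 CPM in MM.1S monoculture (66.8 to 77.2), 214 CPM in MM.1S coculture (190 to 240), 128 CPM in HS-5 monoculture (120 to 138) and 77.1 CPM in HS-5 coculture (66.6 to 88.9). MM.1S monoculture and HS-5 coculture overlapped at the low end, and MM.1S coculture was the highest. SNHG1 was 2.95-fold higher in coculture in MM.1S cells, a log2 ratio of 1.56 (1.37 to 1.77). It was 1.66-fold lower in coculture in HS-5 cells, a log2 ratio of -0.73 (-0.97 to -0.51). In cells of 1000 to 2000 UMIs the MM.1S levels were 68.7 and 203 CPM. A SNHG1 UMI was found in 6.41%, 17.4%, 12.4% and 7.51% of thinned cells and in 15.6%, 15.4%, 16.8% and 8.13% of unthinned cells, in the same order of populations. The unthinned share was alike in both MM.1S cultures, whose median depth differed.

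SNHG5 and SNHG6 were lower in coculture in MM.1S cells, as GAS5 was. SNHG5 measured 456 CPM in MM.1S monoculture (443 to 469), 219 CPM in MM.1S coculture (194 to 245), 687 CPM in HS-5 monoculture (667 to 708) and 653 CPM in HS-5 coculture (621 to 685). The HS-5 levels were above those of MM.1S and overlapped each other. The log2 ratio of coculture over monoculture was -1.06 in MM.1S (-1.24 to -0.89), a level 2.08-fold lower, and -0.07 in HS-5 (-0.16 to 0.01). SNHG6 measured 195 CPM in MM.1S monoculture (186 to 204), 69.9 CPM in MM.1S coculture (56.4 to 85.6), 57.0 CPM in HS-5 monoculture (51.2 to 63.3) and 70.7 CPM in HS-5 coculture (60.6 to 82.0). MM.1S monoculture stood above the other 3, which overlapped. SNHG6 was 2.76-fold lower in coculture in MM.1S cells (log2 ratio -1.47, -1.80 to -1.18) and 1.24-fold higher in HS-5 cells (log2 ratio 0.31, 0.04 to 0.58).

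SNHG8, host of an H/ACA box snoRNA, differed least among the 4 populations of the host RNAs. It measured 194 CPM in MM.1S monoculture (186 to 203), 116 CPM in MM.1S coculture (98.1 to 135), 175 CPM in HS-5 monoculture (165 to 186) and 153 CPM in HS-5 coculture (138 to 169). MM.1S coculture was the lowest, with no overlap with the other 3. The log2 ratio was -0.74 in MM.1S (-0.99 to -0.51) and -0.19 in HS-5 (-0.37 to -0.03), neither past 2-fold. In MM.1S cells of 1000 to 2000 UMIs, SNHG5 was 458 CPM in monoculture and 217 in coculture, SNHG6 206 and 63.9, and SNHG8 200.2 and 100.4, so all 3 were lower in coculture in this range too. In thinned cells the share with a UMI was 34.7% and 18.5% for SNHG5, 18.1% and 6.596% for SNHG6, and 17.4% and 10.3% for SNHG8 in MM.1S monoculture and coculture, and 62.4% and 15.3%, 37.2% and 5.34%, and 36.6% and 8.86% before thinning. In HS-5 monoculture and coculture the thinned shares were 48.8% and 45.7% for SNHG5, 5.72% and 6.41% for SNHG6, and 16.04% and 12.7% for SNHG8, and the unthinned ones 53.3% and 46.9%, 7.64% and 7.85%, and 21.2% and 15.2%.

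**Figure D4:**
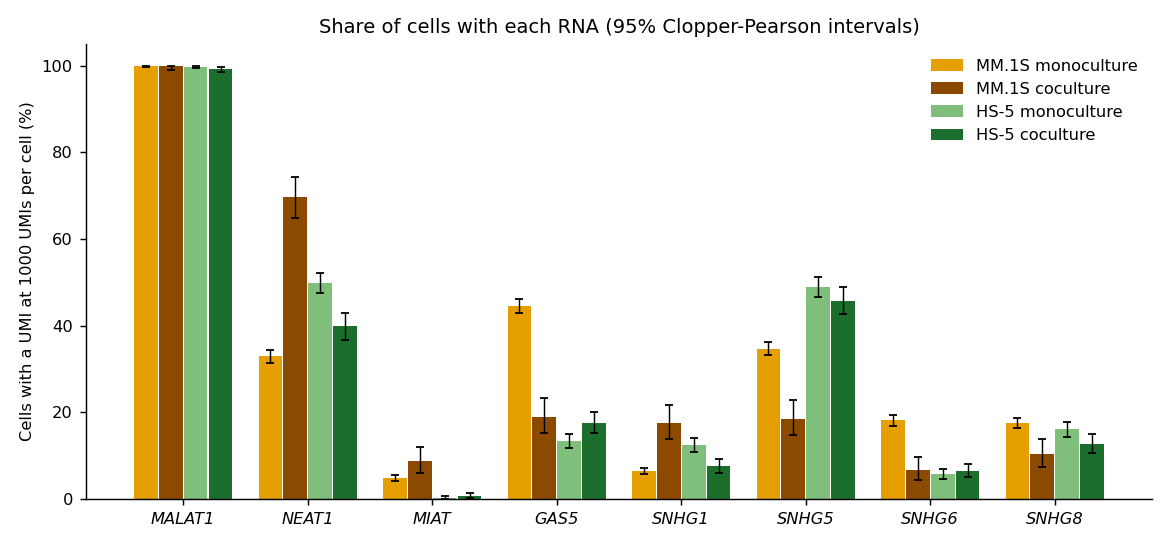
Share of cells (%) with at least 1 UMI of each RNA after thinning to 1000 UMIs per cell; bars are the 4 populations in the order of the legend and error bars are 95% Clopper-Pearson intervals. Between MM.1S monoculture and coculture the NEAT1 share goes from 32.9% to 69.7% and the GAS5 share from 44.5% to 18.997%.

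Counted over the set, 3 of the 8 RNAs were at least 2-fold higher in MM.1S coculture cells, where 19% of the 7837 genes averaging 10 CPM or more were, and 3 were at least 2-fold lower, where 5.79% of genes were. In HS-5 cells 0 of the 7 RNAs at that level were 2-fold higher or lower, against 1.21% and 1.82% of 8811 genes. The sign of the ratio was opposite in the lines for MALAT1, NEAT1, GAS5, SNHG1 and SNHG6, 5 of the 8, and for 62.7% of the 6753 genes that averaged 10 CPM or more in both lines, so this count does not set the 8 RNAs apart. The sign of MALAT1 in MM.1S also turned with depth, as given above. Both ratios are plotted for all genes, and whether the lines differ was not tested, since each has 1 library per culture.

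**Figure D5:**
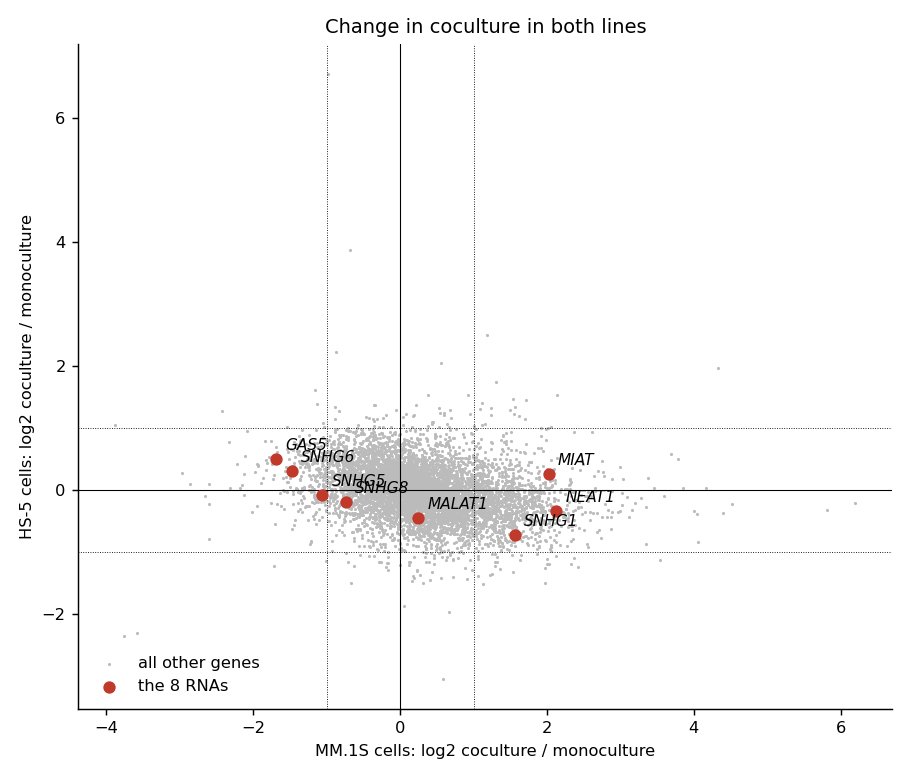
Log2 ratio of coculture over monoculture in MM.1S cells (x axis) and HS-5 cells (y axis) for the 8 RNAs (red) and for the other genes that average 10 CPM or more in both lines (grey, of 6753 genes in all); dotted lines mark 2-fold. NEAT1, MIAT and SNHG1 lie right of the 2-fold line (2.13, 2.02 and 1.56) and GAS5, SNHG6 and SNHG5 left of it (-1.69, -1.47 and -1.06).

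Other properties of the libraries moved with these ratios, and their part in them was not tested. Cytosolic ribosomal protein genes took 19.1% of UMIs in MM.1S monoculture and 12.3% in MM.1S coculture, and 7.71% and 8.85% in HS-5. Mitochondrially encoded genes took 3.98% and 2.14% in MM.1S and 0.716% and 1.34% in HS-5. Transcript length moved with the ratios as well. By longest transcript, MALAT1 (8708 bases), NEAT1 (22743) and MIAT (10143) were in the longest of 4 equal classes of genes, whose median log2 ratio in MM.1S was 0.51. SNHG1 (2768 bases) was in the next to shortest class, with a median of 0.14. GAS5 (1698), SNHG5 (1032), SNHG8 (672) and SNHG6 (648) were in the shortest class, with a median of -0.13. In HS-5 the medians of the shortest and longest classes were 0.17 and -0.16.

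Between the lines in monoculture, MIAT, GAS5 and SNHG6 were at least 2-fold lower in HS-5 than in MM.1S, and no RNA was at least 2-fold higher. With cells of 200 to 2500 genes and under 5% mitochondrial UMIs NEAT1 passed 2-fold (log2 ratio 1.22), and MALAT1 did when centred on the median gene (-1.21) and with totals without mitochondrial and ribosomal protein genes. The background was 15.3% of 8734 genes lower and 38.1% higher. The log2 ratios of HS-5 over MM.1S were -3.11 for MIAT, -2.10 for GAS5, -1.76 for SNHG6, -0.77 for MALAT1 and -0.15 for SNHG8, and 0.85 for NEAT1, 0.83 for SNHG1 and 0.59 for SNHG5. Within the coculture library, where both lines share 1 preparation, 4 RNAs were at least 2-fold lower in HS-5 (MIAT, NEAT1, MALAT1 and SNHG1) and SNHG5 was higher, against 15.8% and 26.1% of 8890 genes. There the log2 ratios were -4.88 for MIAT, -1.63 for NEAT1, -1.48 for MALAT1, -1.46 for SNHG1, 1.57 for SNHG5 and 0.40 for SNHG8. GAS5 (0.09, -0.13 to 0.30) and SNHG6 (0.02, -0.35 to 0.40) could not be told apart between the lines in coculture. NEAT1 and SNHG1 were higher in HS-5 than in MM.1S in monoculture and lower in coculture, and MIAT was lower in HS-5 in both.

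Further non-coding hosts of snoRNAs were listed for comparison, 16 of which averaged 10 CPM or more in MM.1S. Of these, 2 were at least 2-fold higher in coculture and 3 at least 2-fold lower, against 19% and 5.79% of all genes. Their median log2 ratio was -0.02 against 0.24 over all genes. SNHG12 went from 10.7 to 46.6 CPM (log2 ratio 2.02) and SNHG7 from 31.0 to 85.6 CPM (1.44). LRRC75A-AS1 went from 238 to 73.6 CPM (-1.68) and DANCR from 120.5 to 54.1 CPM (-1.14). Hosts thus lay on both sides, as SNHG1 and GAS5 did. In HS-5, 0 of 15 hosts were 2-fold higher and 1 was 2-fold lower (SNHG25, 35.3 and 16.2 CPM). The shares over all genes there were 1.21% and 1.82%, and the median of the hosts was -0.20. Of the 11 protein-coding snoRNA hosts, 5 were at least 2-fold higher in MM.1S coculture and none lower, against 19% and 5.79% of all genes. Their median was 0.96. NOP56, a core protein of C/D box snoRNA particles, went from 232 to 833 CPM, and RACK1, a protein of the small ribosomal subunit, had the lowest ratio (-0.25). In HS-5 the median of these genes was -0.29, with none past 2-fold.

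Genes of paraspeckle proteins, the partners of NEAT1, were also listed. Of the 12, 6 were at least 2-fold higher in MM.1S coculture cells and none lower, against 19% and 5.79% of all genes. All 12 log2 ratios were above 0, and the median was 0.83 against 0.24 over all genes. The count of 6 was 3 when centred on the median gene, with a pseudocount of 10, or with totals without mitochondrial and ribosomal protein genes. The shares over all genes were not recomputed in these settings. SFPQ, a core paraspeckle protein, went from 121 to 661 CPM (log2 ratio 2.44). NONO, the partner of SFPQ, had a ratio of 0.27 (152 and 183 CPM), and NUDT21 one of 0.01. In HS-5 none of the 12 was past 2-fold, and the median was -0.06. Among 12 genes of nuclear speckle proteins and MALAT1 partners none was past 2-fold in either line, with medians of 0.44 in MM.1S and 0.00 in HS-5. The highest log2 ratio among them in MM.1S was that of SON, a scaffold of nuclear speckles (0.98, with 499.95 CPM in monoculture and 987 CPM in coculture).

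Factors of nonsense-mediated decay, which clears spliced snoRNA hosts, were read in the same cells. Of 12 that averaged 10 CPM or more in MM.1S, 5 were at least 2-fold higher in coculture and none lower. The shares over all genes were 19% higher and 5.79% lower. The median log2 ratio of the 12 was 0.76, against 0.24 over all genes. Any part of these factors in the levels of the hosts was not tested. UPF1, its central helicase, went from 8.05 to 36.8 CPM (2.06), and ETF1, a translation release factor, from 95.2 to 242 CPM (1.34). CASC3, of the exon junction complex, had the lowest ratio (-0.34). In HS-5, 0 of 13 were past 2-fold, with a median of -0.18. Of 9 further long non-coding RNAs at that level in MM.1S, 1 was at least 2-fold higher, MIR4435-2HG (130 and 353 CPM), none was 2-fold lower, and the median was 0.31. CRNDE went from 175 to 98.4 CPM (-0.82). In HS-5 none of 11 was past 2-fold.

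Across cells thinned to 1000 UMIs, MALAT1 and NEAT1 counts had Spearman correlations of 0.16 in MM.1S monoculture (3870 cells), 0.33 in MM.1S coculture (379 cells), 0.22 in HS-5 monoculture (1802 cells) and 0.24 in HS-5 coculture (999 cells). MALAT1 and the UMIs of ribosomal protein genes had correlations of 0.02, -0.07, -0.45 and -0.37 in the same order. Cells of 1 population share their library, and at a fixed total a cell with more of 1 RNA has less of the rest, so these are descriptions only.

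The genes closest to each RNA in their pattern over the 4 populations were found by the root mean square difference of centred log2 CPM, among 1828 genes that averaged 100 CPM or more (1829 for MIAT and SNHG6). MALAT1 was closest to ZBTB38 (0.0461), a zinc finger protein, and NEAT1 to CLPTM1L (0.0776). SNHG1 was closest to GADD45A (0.0686), a stress-inducible growth arrest gene, SNHG8 to EIF5A (0.0447) and SNHG5 to ARL2 (0.103). GAS5 was closest to ATP5G2 (0.0951), a subunit of ATP synthase, and SNHG6 to RPS7 (0.116), a ribosomal protein. MIAT had no gene as close: CCND2, the cyclin D2 gene, was the nearest at 0.529, with 825 and 1804 CPM in MM.1S and 140.2 and 121 CPM in HS-5.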

How the data were processed

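For each Drop-seq library the authors deposited a table of whole UMI counts, genes by barcodes, that was not normalized. The submitters' processing notes name GRCh38 and, without role or order, Cell Ranger 3.0.2, UMI-tools 1.0.0, STAR 2.5.3a, Subread, featureCounts 1.6.4 and SAMtools 1.9. The libraries held 3994 (MM.1S), 3865 (HS-5) and 3963 (coculture) barcodes with 10433182, 6143448 and 3981392 UMIs. Barcodes with at least 200 genes were kept (3947, 3732 and 3856). A coculture cell was called MM.1S below an HS-5 share of 0.2 of line-specific UMIs and HS-5 above 0.8. Line-specific genes had at least 50 CPM in their own monoculture. In the coculture, 152 cells had a share of 0.1 to 0.3 and 42 a share of 0.7 to 0.9. No doublet caller was run: cells of both lines were left out, and doublets within a line stayed in.

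Counts were summed per population, expressed as CPM with exact Poisson intervals, and compared as log2 ratios with a pseudocount of 1 and conditional exact intervals. A count of 0 allows up to 3 counts, which is 0.288, 2.25, 0.488 and 1.21 CPM in MM.1S monoculture, MM.1S coculture, HS-5 monoculture and HS-5 coculture. With 1 library per condition no test was possible. Shares of cells have Clopper-Pearson intervals. Levels were not compared between genes. Scripts used Python 3.11.15, numpy 2.4.6, scipy 1.17.1 and pandas 2.3.3, and were tested on simulated data. The RNAs and the gene lists were chosen with earlier results of these data known. Named genes were the 8 RNAs, the 2 highest and 2 lowest ratios of each list per line (some are not shown), and the 3 genes closest in pattern to each RNA. Of the symbols, 97.3% were found in GENCODE release 29.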

Additional observations from a re-analysis of the deposited data

Results flagged for a closer look

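The log2 ratio of coculture over monoculture had opposite signs in the 2 lines for 5 of the 8 RNAs, which is why they are listed, and for 62.7% of 6753 genes, so opposite signs were as common over all genes. NEAT1 had a ratio of 2.13 in MM.1S cells and -0.34 in HS-5 cells. SNHG1 had 1.56 in MM.1S and -0.73 in HS-5. GAS5 had -1.69 in MM.1S and 0.50 in HS-5. SNHG6 had -1.47 in MM.1S and 0.31 in HS-5. MALAT1 had 0.25 in MM.1S, which equals the median over all genes to within 0.01, and -0.46 in HS-5, and its MM.1S sign turned among cells of 500 to 1500 UMIs (-0.03). Each line has 1 library per culture, so the difference between the lines was not tested.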

How the results depend on the processing

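Each log2 ratio was recomputed under 14 alternatives: other filters on cells, other rules for the lines, other totals and pseudocounts, a centring on the median gene, equal weight per cell, subtraction of free RNA, and cells of 500 to 1500 UMIs. All 14 ratios past 2-fold kept their sign and stayed past 2-fold in each of them. The ranges of depth given earlier were not among these alternatives. Within those ranges, in MM.1S, MIAT was under 2-fold wherever both cultures had cells. So were NEAT1 from 500 to 1000 UMIs and SNHG5 above 2000 UMIs. Under the alternatives, 28 of 32 ratios kept their sign. The exceptions were MALAT1 in MM.1S (-0.03 to 0.26), MIAT in HS-5 (-0.22 to 1.05), and GAS5 (-0.02 to 0.17) and SNHG6 (-0.17 to 0.08) between the lines in coculture. The count of RNAs at least 2-fold higher in HS-5 coculture than in monoculture, 0 as reported, was 1 among cells of 500 to 1500 UMIs (GAS5, 1.18) and 1 with equal weight per cell (MIAT, 1.05). The count at least 2-fold higher in HS-5 than in MM.1S monoculture, also 0, was 1 (NEAT1) with 200 to 2500 genes and under 5% mitochondrial UMIs (1.22) and 1 with equal weight per cell (1.18). The count at least 2-fold lower in HS-5 than in MM.1S monoculture, 3 as reported, was 4 (with MALAT1) when centred on the median gene (-1.21) and with totals without mitochondrial and ribosomal protein genes. Of the gene lists in MM.1S coculture, the count at least 2-fold higher was 3 in place of 5 for coding snoRNA hosts when centred, and 3 in place of 6 for paraspeckle proteins under 3 of the alternatives. The shares over all genes were not recomputed under these alternatives. The other list counts between cultures that moved by over 1.5 times differed by 1 or 2 genes (ribosomal protein and mitochondrial genes were not recomputed). The cause was not tested. In MM.1S the ratio of NEAT1 ranged from 1.71 to 2.24 and that of MIAT from 1.05 to 2.05, both lowest among cells of 500 to 1500 UMIs. No paired analysis was possible because each condition has 1 library, and no replicate could be left out. Depth limits MIAT in HS-5 (26 and 13 UMIs) and, with 379 MM.1S coculture cells at 1000 UMIs, the shares of cells in that population.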

Other observations

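Ribosomal protein genes, whose mRNAs share the pyrimidine tract of several snoRNA hosts, leaned lower in MM.1S coculture cells. Of 83 at a mean of 10 CPM, 17 were at least 2-fold lower and 3 at least 2-fold higher. Over all genes the shares were 5.79% and 19%. The median log2 ratio of the 83 was -0.55, and in HS-5 none of 82 was past 2-fold (median 0.17). RPL10 went from 676 to 85.6 CPM and RPL9 from 48.1 to 165 CPM. Both belong to families with many near-identical pseudogene copies, so their counts are uncertain. Of 13 translation factors and related genes with such tracts, 1 was at least 2-fold higher in MM.1S coculture, TPT1 (520.4 and 1361 CPM), and the median was -0.18. Of the 13 mitochondrially encoded genes, 5 were at least 2-fold lower in MM.1S coculture and 4 at least 2-fold higher in HS-5 coculture. Over all genes the shares were 5.79% and 1.21%. The medians of the 13 were -0.83 and 0.88.

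Among stress and immediate early genes, 2 of 7 at that level were at least 2-fold higher in MM.1S coculture, where 19% of all genes were. These were GADD45B, a stress-inducible gene, at 25.9 and 134 CPM, and HSPA1B, a heat shock protein gene, at 23.7 and 101 CPM. Of the 7, 2 had a log2 ratio below 0, DDIT3 (-0.61) and IER2 (-0.04). In HS-5, FOS, an immediate early transcription factor, went from 33.9 to 3.23 CPM, the only one of 10 past 2-fold. Over all genes 1.82% were at least 2-fold lower there. Macrophage and T cell markers summed to between 0.751 and 3.64 CPM in each population. HBA1 was at 13.1 and 10.5 CPM in MM.1S and at 0 in HS-5.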
